A study of Mus musculus with 18 samples.

Results

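The mouse genes whose symbols start with Kcn encode potassium channels and some of the proteins attached to them. They were taken as all protein-coding rows of the deposited comparison table of DP with PP with such a symbol, which gave 92 of 18538 protein-coding rows and 90 symbols, because Kcnb2 and Kcnh8 each stand under a pair of Ensembl identifiers. Cells came from the lateral cortex of C57BL/6 embryos at embryonic day 14.5, with the genotype labelled Btg2GFP/Tubb3GFP in all 3 groups, and were sorted on reporter fluorescence after meninges and ganglionic eminences had been taken off. PP are proliferating progenitors, negative for the Btg2 reporter, which the sample titles call RFP. DP are differentiating progenitors, positive for it, and Neuron are cells positive for the Tubb3 reporter, GFP. Each of the 9 libraries, 3 per group, came from a pool of several embryos of different litters and was sequenced in a single-read and a paired-end run, whose gene counts were added. Since the RNA is from bulk sorted cells, fewer cells of a type and less RNA per cell cannot be told apart, and the groups are defined by the reporters of Btg2 and Tubb3 alone.

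Potassium channels let potassium ions leave the cell and so hold the resting potential, end action potentials and set how a neuron fires. Voltage-gated channels are built from pore subunits of the Kcna, Kcnb, Kcnc, Kcnd, Kcnq and Kcnh groups, inward rectifiers are of the Kcnj group, leak channels with tandem pores of the Kcnk group, and channels opened by calcium or sodium of the Kcnn, Kcnm and Kcnt groups. Kcnab, Kcne, Kcnip and Kcnmb genes encode auxiliary subunits, which form no pore of their own. In the embryonic cortex, radial glia, the progenitors along the ventricle, have leak and inwardly rectifying potassium conductances, and young neurons add voltage-gated ones as they mature.

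Summed over all 92 rows, the level of Kcn transcripts was 149.8, 153.7 and 142.2 RPKM in the PP libraries L222, L355 and L393. It was 171.8, 187.2 and 173.7 RPKM in the DP libraries L223, L356 and L394, and 429.9, 439.1 and 417.9 RPKM in the Neuron libraries L224, L357 and L395. RPKM are read counts divided by a gene's counted length in kilobases and by the depth of the library, so that levels can be set side by side between genes, and every list of values below keeps this order of libraries. The groups did not overlap, and most of the distance lay between DP and Neuron. A level of at least 1 RPKM was reached by 22 to 24 rows in PP, 31 to 32 in DP and 50 to 51 in Neuron. Kcn reads were 0.0711 to 0.0739% of all gene reads in PP, 0.0759 to 0.0812% in DP and 0.207 to 0.218% in Neuron.

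**Figure D1:**
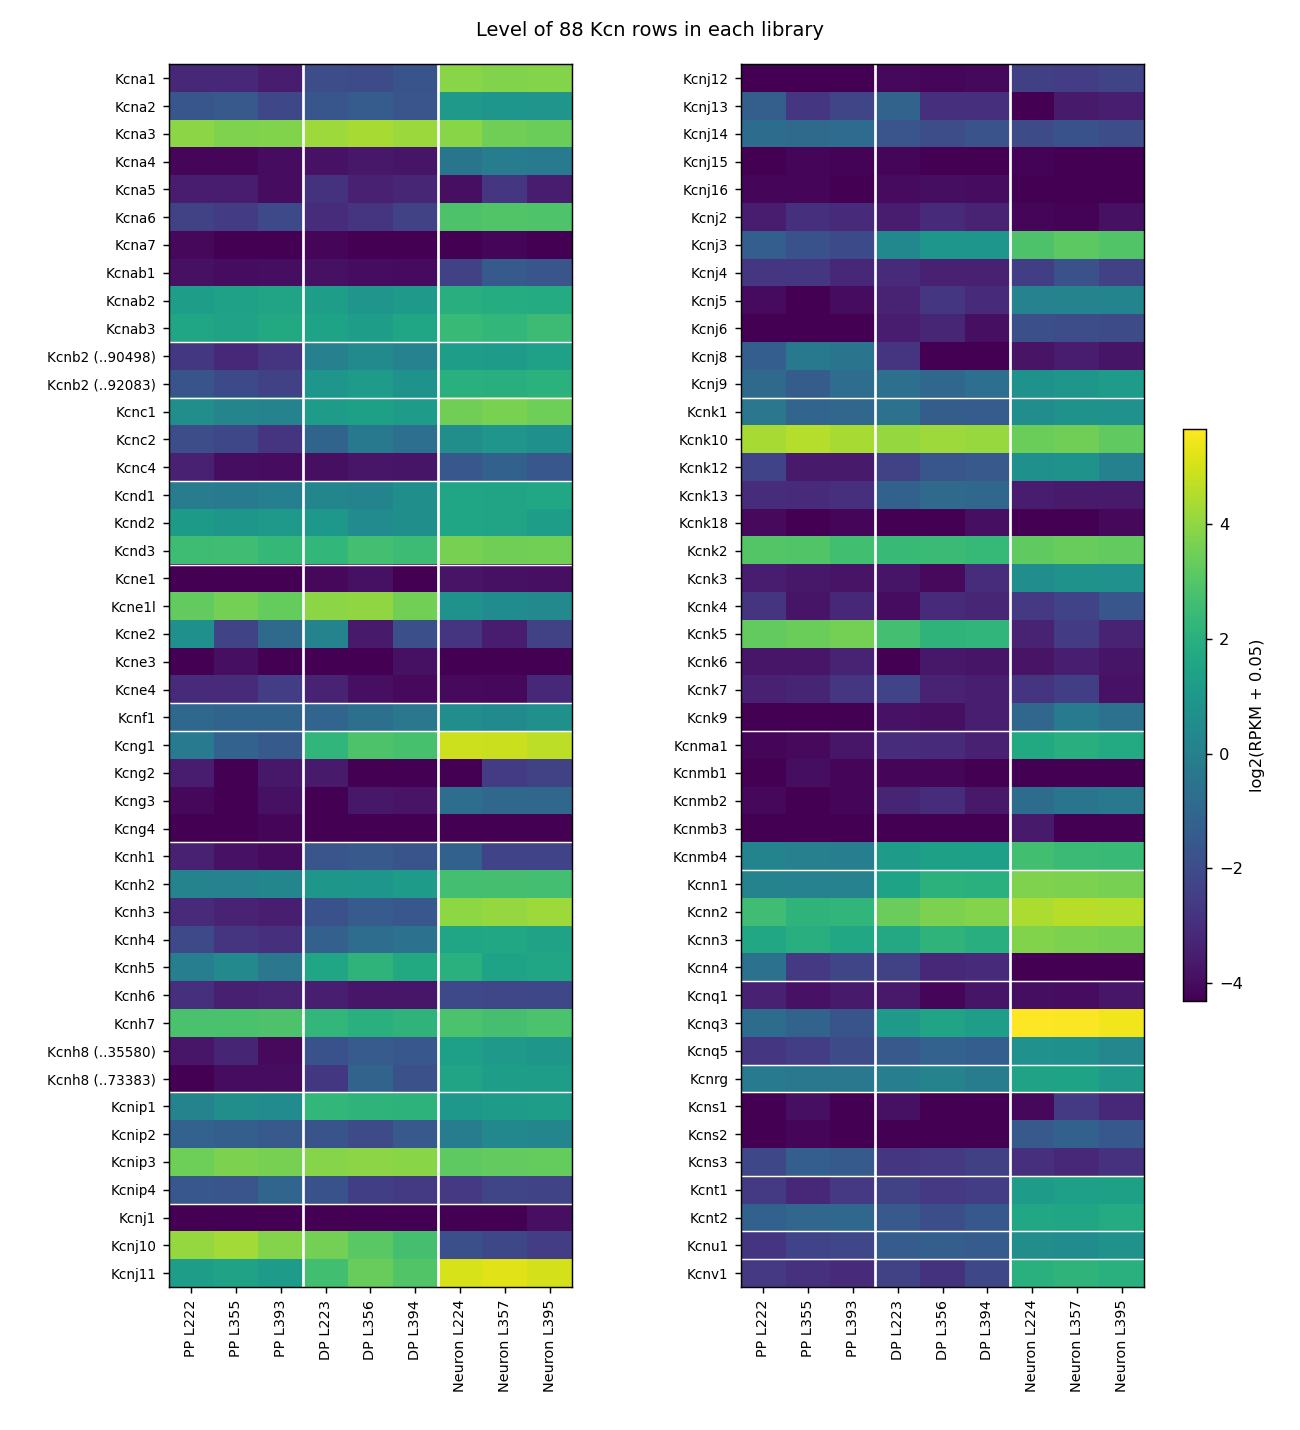
Level of 88 Kcn rows (vertical axis, ordered by subfamily, with white lines between subfamilies) in each of the 9 libraries (horizontal axis), as log2(RPKM + 0.05). Kcnq3, Kcng1 and Kcnj11 are the brightest rows in the Neuron libraries, while Kcnj10, Kcnk5 and Kcne1l are bright in PP and DP and dark or dimmer in Neuron.

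The make-up of this sum differed between the groups. Subfamilies were taken by the letter after Kcn, so that the Kcna sum takes in the Kcnab genes and the Kcnm sum the Kcnmb genes. In PP the Kcnk leak channels gave the highest subfamily sum, 40.2 ± 1.77 RPKM (SD, n = 3 libraries, as for every ± below, other than on log2 differences, where it is the SE), or 27.06% of all Kcn transcripts. In Neuron they gave 25.7 ± 1.78 RPKM, or 5.99%. The Kcnq group, which carries the M-current that holds back repeated firing, went the other way, from 2.1 ± 0.308 RPKM in PP, 1.41% of the sum, through 7.59 ± 1.31 in DP to 98.7 ± 3.41 in Neuron, 23% of the sum. The next largest sums in Neuron were those of Kcnn (48.9 ± 0.929 RPKM), Kcnj (46.6 ± 3.42), Kcna with Kcnab (45.7 ± 2.36) and Kcnh (41.6 ± 0.736). Of the Kcna sum in Neuron, Kcnab2 gave 3.60 RPKM and Kcnab3 5.26, so that its rank above Kcnh rests on the Kcnab genes. Besides Kcnk, the mean sum was lower in Neuron than in PP for Kcne, at 1.57 ± 0.19 against 11.3 ± 0.779 RPKM, and for the Kcnip genes, at 12.9 ± 0.809 against 14.1 ± 1.25 RPKM, where the libraries overlapped. A sum per length gives weight to short genes. On sums of CPM, which leave out the length, the log2 ratio of Neuron over PP was 2.2 in place of 1.19 for Kcna, 0.99 in place of 2.14 for Kcnh and 0.65 in place of 1.13 for Kcnj.

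**Figure D2:**
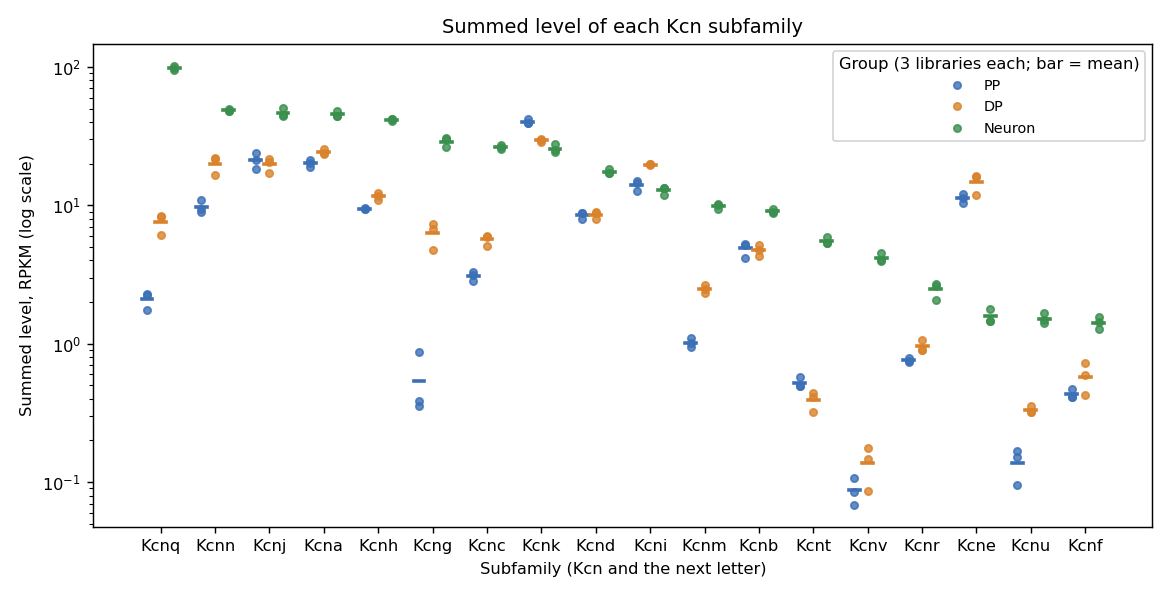
Summed level in RPKM (vertical axis, log scale) of each Kcn subfamily (horizontal axis, from the highest to the lowest Neuron mean). There is 1 point per library and a bar at the mean of the 3 libraries of a group. The letter a also holds the Kcnab genes, m also the Kcnmb genes, and i the Kcnip genes. Subfamilies with a mean of at least 1 RPKM in a group are shown; the Kcnq sum reaches 98.7 RPKM in Neuron from 2.1 RPKM in PP, and the Kcne and Kcnk sums are lowest in Neuron.

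To compare the groups gene by gene, edgeR's quasi-likelihood test was run on all 18627 features that passed a filter on low counts, with Benjamini-Hochberg adjustment over all of them and a threshold of 0.05. Of the 92 Kcn rows 73 were tested. Of these, 47 were over the filter's level in all libraries of every group, 15 in Neuron alone, 4 in DP and Neuron, 3 in PP alone, 3 in PP and DP, and 1, Kcnj2, in no group in full. Genes that entered through a single group had to differ, so the counts below, and the p-values of these genes, are descriptions. Through Neuron alone came Kcna4, Kcnab1, Kcnc4, Kcng3, Kcnh6, the minus-strand row of Kcnh8, Kcnj4, Kcnj5, Kcnj6, Kcnj12, Kcnk3, Kcnk9, Kcnma1, Kcnmb2 and Kcns2. Through PP alone came Kcne2, Kcnj8 and Kcnn4. The 19 rows that were not tested had 1 to 68 reads each over all 9 libraries and no group mean over 0.207 RPKM: Kcna5, Kcna7, Kcne1, Kcne3, Kcne4, Kcng2, Kcng4, Kcnj1, Kcnj13, Kcnj15, Kcnj16, Kcnk4, Kcnk6, Kcnk7, Kcnk18, Kcnmb1, Kcnmb3, Kcnq1 and Kcns1.

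Between PP and DP, that is between progenitors without and with the Btg2 reporter, 36 Kcn rows were higher in DP and 12 were lower, 48 of 73 in all. Over all features tested, 21.3% were called higher, 20.2% lower and 41.4% in either direction. As shares of all rows, tested or not, 39.1% of Kcn rows and 19% of protein-coding rows were higher in DP, and 13% and 17.1% were lower. The median log2 difference of the tested Kcn rows was 0.52, and that of all features -0.02. Many of the decreases were small: 6 of the 12 were at least 2-fold, beside 29 of the 36 increases. With a required fold of 1.5, 5 rows in place of 12 were called lower. The share of all features called with that required fold is not given here.

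Between DP and Neuron, 56 Kcn rows were higher in Neuron and 10 lower, where 33.1% of all features were called higher, 34.2% lower and 67.3% either way. Of all rows, 60.9% of Kcn rows and 29.2% of protein-coding rows were higher. The median log2 difference of the tested Kcn rows was 1.82, beside -0.04 over all features. Between PP and Neuron, 57 Kcn rows were higher in Neuron and 14 lower, beside 36.7% and 38.6% of all features, or 75.3% either way. The median log2 difference was 2.92, beside -0.04. The 3 comparisons share libraries in pairs and are not independent of each other. In the authors' deposited tables, 47 of the 48 rows called here between PP and DP had the same direction and an adjusted p under 0.05. So had 66 of the 66 called between DP and Neuron. Their tables alone also called 2 rows between PP and DP, Kcna6 and Kcnn4. Between DP and Neuron they alone called 3, Kcnj13, Kcnk4 and Kcns1, which were not tested here.

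**Figure D3:**
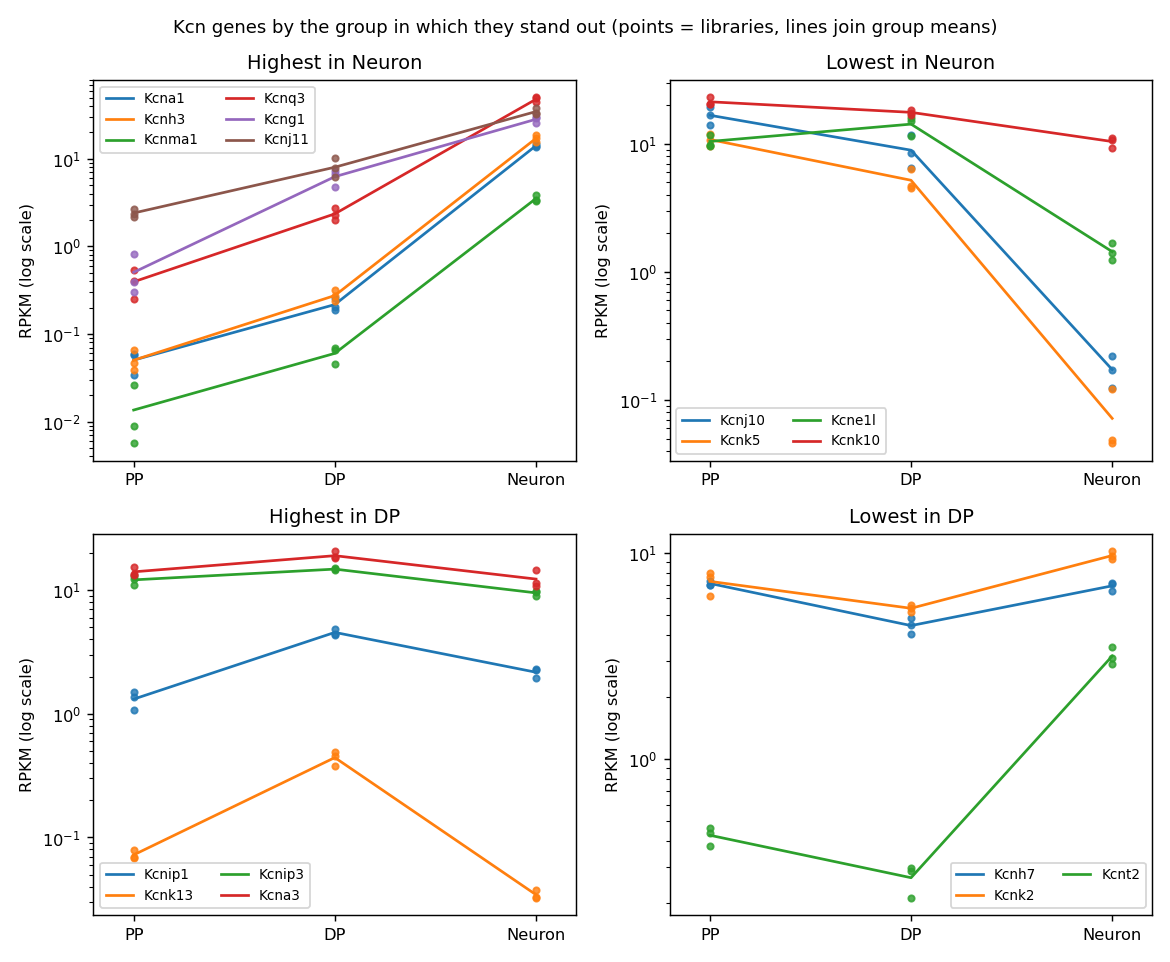
Level in RPKM (vertical axis, log scale) of Kcn genes in PP, DP and Neuron (horizontal axis), with 1 point per library and lines through the group means, in 4 panels by the group in which a gene stands out; the genes were picked after their values were seen. Of the genes shown, Kcna1 and Kcnh3 gain most between DP and Neuron, Kcnj10, Kcnk5 and Kcnk13 lose most there, and Kcnip1 and Kcnk13 are highest in DP.

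Kcna genes encode Shaker-type subunits, which open at low voltages along axons. Kcna1 (ENSMUSG00000047976, mm9 chr6:126586481-126595819, minus strand) was at 0.0569, 0.0595 and 0.0344 RPKM in PP, 0.205, 0.19 and 0.255 in DP, with 14.6, 13.7 and 14.2 in Neuron. The groups did not overlap at either step, and behind these values stood 59, 261 and 16558 reads. Kcna1 was 4.32-fold above PP in DP (log2 2.11 ± 0.19 SE, edgeR adjusted p = 6.15e-06) and 65.5-fold above DP in Neuron (log2 6.03 ± 0.13, adjusted p = 4.02e-11). Its neighbour Kcna6 stayed at 0.122 to 0.18 RPKM in PP and 0.0714 to 0.138 in DP, which overlap (adjusted p = 0.0655), and was 73.6-fold higher in Neuron, at 7.27, 7.64 and 7.45 RPKM. Of the Kcna6 length, 39.49% lies under exons of Gm17456 on the opposite strand, which went from 0.0847 CPM in DP to 3.01 in Neuron; the strand setting of the counting is not known from the sources used here. Kcna4 was 32.3-fold above DP in Neuron (16 and 510 reads), and Kcna2 6.71-fold.

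Kcna3, the most abundant Kcna gene of both progenitor groups, did not follow this course. Its levels were 15.4, 13.2 and 13.6 RPKM in PP, 18.4, 20.5 and 18.0 in DP, with 14.6, 11.4 and 10.8 in Neuron. DP stood above both other groups, 1.35-fold above PP (adjusted p = 0.0109) and 1.55-fold above Neuron (adjusted p = 0.000509), whereas PP and Neuron overlapped (adjusted p = 0.154). In PP, 14.0 of the 20.1 RPKM summed over the Kcna and Kcnab genes came from Kcna3. The Kcnab genes encode the cytoplasmic beta subunits of these channels. Kcnab2 and Kcnab3 were present in every group, at 2.58 ± 0.229 and 2.98 ± 0.344 RPKM in PP and 3.60 ± 0.141 and 5.26 ± 0.384 in Neuron, and Kcnab1 was 15.9-fold above DP in Neuron at a low level, 0.237 ± 0.0845 RPKM. Kcna4 was also called higher in DP than in PP (5 and 16 reads) and Kcnab2 lower, but the call on Kcna4 was lost in 8 alternatives (adjusted p up to 0.531) and that on Kcnab2 in 6 (up to 0.132), most of them leaving out 1 library.

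All 4 tested Kcnq genes were higher in DP than in PP and in Neuron than in DP; the fifth, Kcnq1, the partner of Kcne1 in heart, had 28 reads over all libraries and was not tested. Kcnq3, a subunit of the neuronal M-channel, was the most abundant Kcn transcript in Neuron. The gene (mm9 chr15:65826733-66117786, minus strand) was at 0.532, 0.399 and 0.251 RPKM in PP, 2.01, 2.77 and 2.28 in DP, with 50.8, 49.0 and 44.0 in Neuron. Each group stood clear of the others. Kcnq3 was 6.12-fold above PP in DP and 20.3-fold above DP in Neuron (log2 4.34 ± 0.16 SE, adjusted p = 8.14e-10). Kcnq5 was at 0.101, 0.127 and 0.202 RPKM in PP, 0.299, 0.389 and 0.341 in DP, with 1.6, 1.56 and 1.2 in Neuron, 2.36-fold higher at the first step (adjusted p = 0.00152) and 4.22-fold at the second (adjusted p = 3.75e-06), again with no overlap between the groups.

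The Kcnb genes encode the Shab delayed rectifiers. Kcnb2 was counted under a pair of identifiers whose exons share 1993 bases. Whether reads in these bases were split between the rows or left out is not known from the sources used here. The level of either row may thus be too low. In the row with more reads Kcnb2 was at 0.249, 0.187 and 0.144 RPKM in PP, 1.87, 2.22 and 1.70 in DP, with 3.96, 3.79 and 4.15 in Neuron. This was 10.1-fold above PP in DP (adjusted p = 2.59e-07), and the other row was 12.8-fold higher.

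Kcnf1, Kcng, Kcns and Kcnv1 subunits form no channel alone and join Kcnb subunits in mixed channels. Of these, Kcng1 was the most abundant, at 0.828, 0.389 and 0.301 RPKM in PP, 4.74, 7.32 and 6.71 in DP, with 29.9, 29.4 and 25.7 in Neuron. It was 12.8-fold above PP in DP (log2 3.67 ± 0.28 SE, adjusted p = 1.87e-06) and 4.52-fold higher again in Neuron, with no overlap between groups. Per length, Kcng1 exceeded either Kcnb2 row in each Neuron library. Kcnv1 stayed low in both progenitor groups, at 0.0685 to 0.107 and 0.0862 to 0.177 RPKM, and was 31-fold above DP in Neuron, at 4.04, 4.51 and 3.98 RPKM. Kcns2 had 1 read in PP, 0 in DP and 187 in Neuron, at least 64.6-fold higher in Neuron than in DP against a floor of 3 reads over the DP group. Kcng3 had 4, 8 and 216 reads, and was 26.9-fold above DP in Neuron. Kcns3 went the other way at a low level, from 0.276 ± 0.0882 RPKM in PP to 0.114 ± 0.0178 in DP, 2.44-fold lower (adjusted p = 0.00488).

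The Kcnc genes encode Shaw-type channels, which let neurons fire at high rates. All 4 were higher in Neuron than in DP, and 3 of them were also higher in DP than in PP. Kcnc1 was at 1.48, 1.13 and 1.05 RPKM in PP, 2.18, 2.49 and 2.26 in DP, with 11.3, 12.6 and 11 in Neuron, 1.9-fold higher at the first step (adjusted p = 9.7e-05) and 5.04-fold at the second (adjusted p = 8.32e-09). Kcnc2 reached 1.61 ± 0.166 RPKM in Neuron and Kcnc4 0.312 ± 0.0623 RPKM. The Kcnd genes encode the A-type channels of dendrites. Kcnd3 was at 5.89, 6.11 and 4.93 RPKM in PP, 4.87, 6.45 and 5.78 in DP, with 12.3, 11.4 and 11.7 in Neuron, so that the progenitor groups overlapped (adjusted p = 0.929) and Neuron stood 2.07-fold above DP (adjusted p = 3.58e-06). Kcnd1 and Kcnd2 reached 2.95 ± 0.19 and 2.73 ± 0.309 RPKM in Neuron, from 0.876 ± 0.0606 and 2.03 ± 0.108 in PP. The call on Kcnd2 between PP and Neuron (1.35-fold, adjusted p = 0.0145) was lost without library L355 (adjusted p = 0.053) and without L224 (0.0568). Between PP and DP, Kcnd2 was not called (adjusted p = 0.0944), but with the 3 sets of consecutively numbered libraries as a replicate block it was 1.26-fold lower in DP (edgeR adjusted p = 0.0312).

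Of the 9 Kcnh rows, which encode the EAG, ERG and ELK channels, 7 were higher in DP than in PP and 1 lower, and 7 were higher in Neuron than in DP. Kcnh3, an ELK channel of the forebrain (mm9 chr15:99055292-99073248, plus strand), was at 0.0653, 0.0462 and 0.0389 RPKM in PP, 0.236, 0.314 and 0.274 in DP, with 15.7, 17.1 and 18.5 in Neuron. This was a 5.57-fold step from PP to DP (adjusted p = 7.56e-06) and a 61.8-fold step from DP to Neuron (log2 5.95 ± 0.13 SE, adjusted p = 4.3e-11). The EAG channels Kcnh5 and Kcnh1 were higher in DP than in PP and not called between DP and Neuron: Kcnh5 went from 0.972 ± 0.263 RPKM in PP to 3.59 ± 0.769 in DP and stood at 3.22 ± 0.676 in Neuron, and Kcnh1 went from 0.0252 ± 0.0169 to 0.268 ± 0.0227 and stood at 0.227 ± 0.13. For both, DP and Neuron overlapped (adjusted p = 0.516 and 0.57). Kcnh7, an ERG channel, held the highest level of the group in PP, at 6.98, 6.99 and 7.31 RPKM. It was 1.6-fold lower in DP, at 4.82, 4.03 and 4.44 RPKM (adjusted p = 2.62e-05), and at 7.12, 6.55 and 7.05 in Neuron, where it overlapped PP. Of its length, 4.571% lies under exons of Gca on the opposite strand, which was at 39.2 CPM in PP, 24.1 in DP and 2.94 in Neuron. Its relative Kcnh2 instead went from 1.08 ± 0.0765 through 2.02 ± 0.23 to 6.43 ± 0.13 RPKM. The 2 rows under the symbol Kcnh8 lie at separate places of chromosome 17, the first on the plus and the second on the minus strand. In these rows DP stood 8.78-fold (8 and 75 reads) and 22.5-fold (2 and 55 reads) above PP. Whether the row on the minus strand holds transcripts of Kcnh8 itself was not tested.

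The Kcnj group holds the inward rectifiers, and its members went in both directions. Kcnj10 encodes Kir4.1, the channel by which glia take up potassium. It was at 16.8, 19.3 and 14.0 RPKM in PP, 11.8, 8.53 and 6.46 in DP, with 0.221, 0.173 and 0.124 in Neuron. Kcnj10 was 1.87-fold below PP in DP (log2 -0.91 ± 0.19 SE, adjusted p = 0.00285) and 51.2-fold below DP in Neuron (log2 -5.68 ± 0.27, adjusted p = 4.8e-09). Kcnj11 encodes Kir6.2, the pore of the channel that ATP closes. At mm9 chr7:53352533-53355607, minus strand, it was at 2.37, 2.67 and 2.18 RPKM in PP, 6.14, 10.1 and 7.80 in DP, with 33.6, 37.6 and 32.7 in Neuron, 3.34-fold higher at the first step (adjusted p = 7.27e-06) and 4.31-fold at the second (adjusted p = 1.67e-07). Abcc8, its sulfonylurea receptor SUR1, was at 1.52 ± 0.457 CPM in PP, 12.8 ± 2.78 in DP and 224.1 ± 20.6 in Neuron.

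Kcnj3, Kcnj5, Kcnj6 and Kcnj9 encode the GIRK channels, which open on signals from G-protein-coupled receptors. Kcnj3 (GIRK1) was the most abundant, at 0.35, 0.237 and 0.185 RPKM in PP, 1.22, 1.86 and 1.84 in DP, with 7.29, 8.90 and 7.66 in Neuron, 6.48-fold above PP in DP (adjusted p = 3.25e-06); 31.08% of its length lies under exons of Gm17595 on the opposite strand. Kcnj6 (GIRK2) had 0 reads in PP, 30 in DP and 160 in Neuron, which made it at least 9.79-fold higher in DP and at least 54.1-fold higher in Neuron than in PP. Kcnj5 (GIRK4) went from 5 through 44 to 626 reads; with the single-read runs alone the adjusted p of its first step was 0.128. Kcnj9 (GIRK3) was called between DP and Neuron, 3.52-fold higher at 1.93 ± 0.269 RPKM, but not between PP and DP (adjusted p = 0.358). All 4 were higher in Neuron than in DP. Of the classical strong rectifiers, Kcnj2 was 5.58-fold below DP in Neuron on 6 and 37 reads, Kcnj4 was 3.22-fold higher on 48 and 15 reads, and Kcnj12 had 0 reads in PP and 50 in Neuron, at least 16.9-fold higher. The Kcnj4 call between PP and Neuron (adjusted p = 0.0253) was lost in 3 alternatives, among them those without L393 and without L357 (adjusted p 0.101 to 0.144). Kcnj14 was 2.15-fold below PP in DP, at 0.237 ± 0.0279 against 0.51 ± 0.018 RPKM; with the single-read runs alone the adjusted p was 0.177.

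Kcnj8 encodes Kir6.1, the vascular relative of Kir6.2. It was at 0.344, 0.771 and 0.676 RPKM in PP, 0.0968, 0 and 0 in DP, with 0.0214, 0.0372 and 0.0235 in Neuron, and its 18.9-fold lower value in DP (adjusted p = 0.000591) rests on 179 and 9 reads. All 9 DP reads came from L223. Without that library the comparison of Neuron with DP turned from log2 -0.13 (adjusted p = 0.926) to 4.52 (adjusted p = 0.0331), with DP at 0 reads. Markers of pericytes, the contractile cells of capillaries, were by their sum also highest in PP. Their 7 genes summed to 441.4 to 548.1 CPM in PP, 154.8 to 251.2 in DP and 6.37 to 6.77 in Neuron. The number of them under 1 CPM was 1, 4 and 5, with 1 (Higd1b) at 0 in Neuron. The sum thus fell again from DP to Neuron, where Kcnj8 was not called in the full data. Most of the sum was Notch3, which radial glia also express; Rgs5 alone went from 10.9 ± 5.21 CPM in PP to 0.951 ± 0.786 in DP. Abcc9, the receptor subunit SUR2 that pairs with Kir6.1, was 16.2-fold below PP in DP (adjusted p = 0.000835). The part of pericytes in the Kcnj8 result was not tested.

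**Figure D4:**
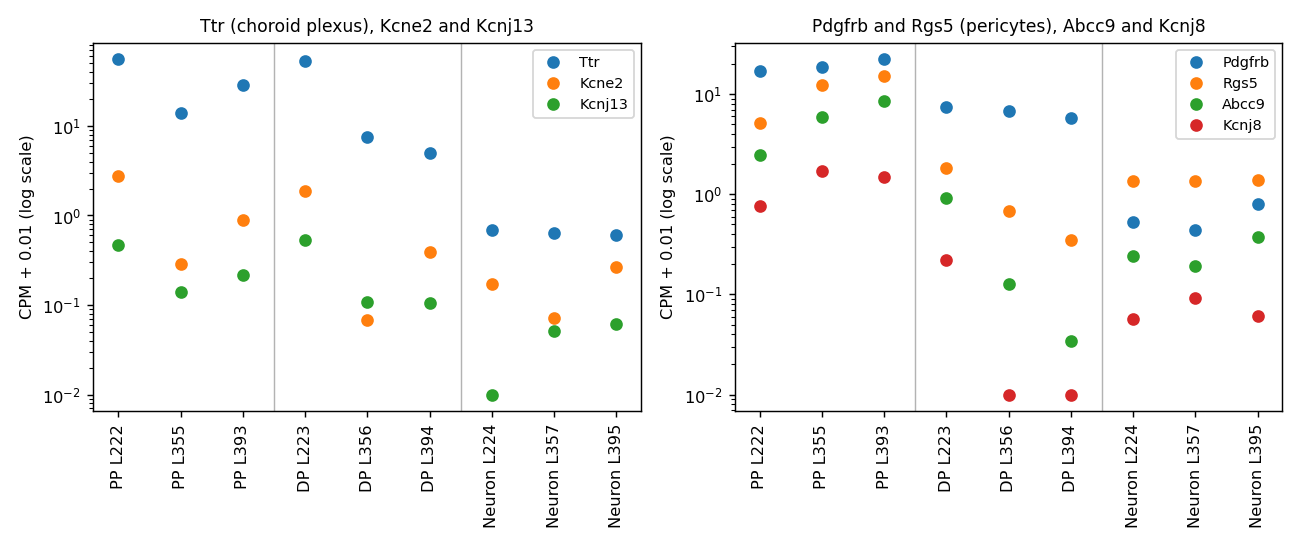
Level in CPM + 0.01 (vertical axis, log scale) in each of the 9 libraries (horizontal axis, grouped by vertical lines). Left, Ttr of the choroid plexus with Kcne2 and Kcnj13, which are high together in L222 and L223; right, the pericyte genes Pdgfrb and Rgs5 with Abcc9 and Kcnj8, all of which are highest in the PP libraries.

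In the Kcnk group of tandem-pore leak channels, 2 genes were above PP in DP and 3 below, and from DP to Neuron 5 rose and 3 fell. Kcnk10 (TREK-2) was the most abundant Kcn gene of PP, at 20.3, 23.2 and 20.3 RPKM, and stood at 16.9, 18.5 and 17.4 in DP, with 10.7, 11.2 and 9.31 in Neuron. The step to DP was 1.21-fold (adjusted p = 0.023) and was lost in 4 alternatives, among them those without L355, without L223 and without L394 (adjusted p 0.0659 to 0.105). The step from DP to Neuron was 1.69-fold lower (adjusted p = 9.57e-06). Kcnk5 (TASK-2), an acid-sensitive leak channel (mm9 chr14:20959280-21001004, minus strand), was at 9.65, 10.8 and 12 RPKM in PP, 6.41, 4.49 and 4.67 in DP, with 0.0487, 0.121 and 0.0459 in Neuron. It was 2.08-fold below PP in DP (log2 -1.06 ± 0.17 SE, adjusted p = 0.000377) and 68.7-fold below DP in Neuron (log2 -6.10 ± 0.27, adjusted p = 2.4e-09), the largest decrease among Kcn genes with reads in every group.

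Kcnk2 (TREK-1), a close relative of Kcnk10, took another course: at 7.96, 7.66 and 6.16 RPKM in PP and 5.36, 5.60 and 5.16 in DP it was 1.35-fold lower in DP (adjusted p = 0.00463), but in Neuron it was 1.8-fold above DP, at 9.28, 10.1 and 9.63 RPKM. The neuronal leak channels Kcnk3 (TASK-1) and Kcnk9 (TASK-3) were near 0 in both progenitor groups. Kcnk3 had 14 and 17 reads there and 786 in Neuron, 46.3-fold above DP, and Kcnk9 had 0, 4 and 100 reads, at least 33.8-fold higher in Neuron than in PP. Kcnk13 (THIK-1) stood out in DP, at 0.378, 0.492 and 0.457 RPKM against 0.069, 0.0686 and 0.0792 in PP and 0.0376, 0.0326 and 0.0331 in Neuron. It was 6.05-fold above PP in DP (adjusted p = 6.93e-06) and 12.6-fold below DP in Neuron (adjusted p = 2.03e-07). THIK-1 is known from microglia, whose 8 markers summed to 8.88 to 12.7 CPM in PP, 5.43 to 7.59 in DP and 1.48 to 3.11 in Neuron. None of the 8 was at 0, but 6, 7 and 7 of them had a mean under 1 CPM in PP, DP and Neuron. Their part in the Kcnk13 result was not tested. Kcnk12, called 3.5-fold above PP in DP on 63 and 17 reads with overlapping libraries, lost this call without L355, L393, L356 or L394 (adjusted p 0.0582 to 0.0753). The call on Kcnk13 between PP and Neuron (30 and 14 reads) was lost in 5 alternatives, including those without L393, L357 or L395.

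The Kcnn genes encode the SK channels, which calcium opens after an action potential. Kcnn2 (SK2) was at 6.11, 4.53 and 4.68 RPKM in PP, 10.3, 12.8 and 14.0 in DP, with 21.6, 23.9 and 23.5 in Neuron, 2.43-fold higher at the first step (adjusted p = 1.61e-05) and 1.86-fold at the second (adjusted p = 6.08e-05). Kcnn1 (SK1) was 3.52-fold higher at both steps and reached 12.8 ± 0.474 RPKM. Kcnn3 (SK3) reached a like level, 13.0 ± 0.634 RPKM, with the difference between PP and DP not called (adjusted p = 0.242). Kcnn4, the channel of intermediate conductance known from red blood and immune cells, had 91 reads in PP, 30 in DP and 0 in Neuron, at least 9.65-fold lower in Neuron than in DP. Its difference between PP and DP was not called (adjusted p = 0.0739), and with the replicate block it was called, 3.01-fold lower in DP (adjusted p = 0.00753). Of its PP reads most came from L222, at 0.616 RPKM against 0.11 and 0.163. Markers of red blood cells summed to 15290 CPM in L222 and 8359 and 8784 in the other PP libraries, to 17.4 to 117.6 in DP and to 9.04 to 13.5 in Neuron, with none of the 7 genes at 0 in any group. Their part in the Kcnn4 result was not tested.

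Kcnma1 encodes the BK channel, opened jointly by calcium and voltage. It was near 0 in PP (9 reads), at 0.0693, 0.0652 and 0.0456 RPKM in DP, with 3.34, 3.84 and 3.40 in Neuron, 57.8-fold above DP in Neuron (log2 5.85 ± 0.22 SE, adjusted p = 8.32e-10). Kcnma1 passed the low-count filter through Neuron alone. Among its beta subunits, Kcnmb4, the main one of neurons, was already at 1.09, 0.983 and 0.909 RPKM in PP, above Kcnma1 itself, and reached 5.69 ± 0.428 in Neuron; 20.85% of its length lies under exons of 4933400F03Rik on the opposite strand. Kcnmb2 went from 2 through 23 to 268 reads. The calls on Kcnma1 and Kcnmb2 between PP and DP were lost with the paired-end runs alone (adjusted p = 0.238 and 0.112). The sodium-activated channels Kcnt1 and Kcnt2 were both low in progenitors, at 0.0924 ± 0.0312 and 0.427 ± 0.0427 RPKM in PP, and 19-fold and 11.9-fold above DP in Neuron. Kcnt2 was 1.62-fold below PP in DP (adjusted p = 0.00434). Kcnu1, known from sperm, reached 1.52 ± 0.13 RPKM in Neuron and was 4.53-fold above DP.

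Among the single-span Kcne subunits, Kcne1l (also known as Kcne5), on the X chromosome, was at 9.68, 11.8 and 9.84 RPKM in PP, 15.2, 16.0 and 11.6 in DP, with 1.67, 1.41 and 1.24 in Neuron. It was 9.88-fold below DP in Neuron (log2 -3.31 ± 0.16 SE, adjusted p = 6.06e-09). The 1.36-fold higher value in DP than in PP (adjusted p = 0.0226), with overlapping libraries, was lost in 5 alternatives, among them those without L222, L393, L223 or L356 (adjusted p 0.0539 to 0.118). Kcne2, a subunit of the choroid plexus epithelium, varied within groups, at 1.56, 0.157 and 0.5 RPKM in PP, 1.07, 0.0329 and 0.218 in DP, with 0.0927, 0.0345 and 0.146 in Neuron. The choroid plexus list, 7 genes led by Ttr, summed to 73.7, 22.7 and 41.4 CPM in PP, 76.6, 22.4 and 21.1 in DP and 5.59 to 7.42 in Neuron, with none of the genes at 0, so that L222 and L223 were high in both. The number of these genes with a mean under 1 CPM was 2 in PP, 1 in DP and 6 in Neuron. Kcne2 was called lower in Neuron than in PP (adjusted p = 0.0283), a call lost without L222, L224 or L357 (adjusted p up to 0.15). Between DP and Neuron it was not called (adjusted p = 0.106), and with the replicate block it was called, 4.12-fold below DP in Neuron (adjusted p = 0.00843). Kcnj13 (Kir7.1), another channel of that epithelium, had 33, 31 and 4 reads and was not tested; 49.06% of its length lies under exons of Gigyf2 on the opposite strand. The part of choroid plexus cells in these values was not tested.

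Kcnip genes encode calcium-binding proteins that attach to Kcnd channels. Kcnip1 was at 1.06, 1.5 and 1.38 RPKM in PP, 4.86, 4.44 and 4.34 in DP, with 1.94, 2.25 and 2.31 in Neuron. It was 3.45-fold above PP in DP (log2 1.79 ± 0.13 SE, adjusted p = 1.1e-06) and 2.1-fold below DP in Neuron (adjusted p = 9.76e-06). Kcnip3, also known as the transcriptional repressor DREAM, was abundant in every group, at 12.1 ± 1.04, 14.8 ± 0.287 and 9.49 ± 0.422 RPKM, with DP again highest, 1.22-fold above PP (adjusted p = 0.0104). Kcnip2 was 4.47-fold above DP in Neuron, at 1.09 ± 0.169 RPKM. Kcnip4 was lower in DP than in PP (2.01-fold, adjusted p = 0.0255), a call lost with the paired-end runs alone and without L393, L356 or L394 (adjusted p 0.095 to 0.157). Kcnrg, which encodes a soluble protein that hinders assembly of voltage-gated channels, was 2.57-fold above DP in Neuron, at 2.47 ± 0.343 RPKM.

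Of 34 genes for proteins that work with these channels, 31 were tested. They comprise 23 partners and scaffolds, 4 HCN channels and 7 subunits of the sodium-potassium pump. Between PP and DP 13 were higher and 5 lower (8 and 3 with a required fold of 1.5). Between DP and Neuron 24 were higher and 3 lower (6 lower with the replicate block). The background shares above belong to the fit without the block or the required fold. With the block, 6912 of all 18627 features were lower in Neuron than in DP, in place of 6378. The median log2 difference was 0.26 at the first step and 1.06 at the second. Among the partners, 18 of 23 were higher in Neuron than in DP and 0 lower by edgeR; with the replicate block 1, Dlg1, was lower. Cntn2, the axonal adhesion protein that gathers Kcna channels at juxtaparanodes, was at 26.4 ± 20.6 CPM in PP, 229 ± 47 in DP and 5114 ± 226 in Neuron; Lgi1, a secreted protein bound to Kcna1 complexes, was 71.6-fold above DP in Neuron (adjusted p = 6.29e-09). Dpp10, a membrane partner of Kcnd channels, was at 0.226 ± 0.0473 CPM in PP, 0.2 ± 0.0153 in DP and 21.6 ± 4.57 in Neuron, a value 107-fold higher at the second step. Ank3, the ankyrin that anchors Kcnq channels at the axon initial segment, was 6.71-fold above PP in DP and 10.2-fold above DP in Neuron. Cntnap2, which clusters Kcna channels, was 1.51-fold below PP in DP (adjusted p = 0.00642) and 2.8-fold above DP in Neuron.

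All 4 HCN channels, relatives of the potassium channels that pass a mixed cation current, were higher in Neuron than in DP. Hcn4 was 6.75-fold higher, at 34.3 ± 5.23 CPM. Of the 7 subunits of the sodium-potassium pump, which builds the gradient these channels use, 2 were higher and 3 lower at that step, or 5 lower with the replicate block. Atp1a4, known from sperm, was at 0.236 ± 0.0971 CPM in DP and 0.00677 ± 0.0117 in Neuron by level (edgeR adjusted p = 0.000209); with the single-read runs alone its adjusted p was 0.0718.

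To describe the promoters of channel genes with and without transcripts in these cells, RefSeq promoter sequences (GRCm38.p6) were matched by symbol; 66 of 90 Kcn symbols had an entry and 51 exactly 1. In the 250 bases before the annotated start, CG dinucleotides were counted, which lie on both strands at once. The count was at least 10 in 25 of the 38 Kcn genes that passed the low-count filter (65.79%, median 14.5) and in 1 of the 13 that did not (7.692%, median 3). Among all protein-coding genes with 1 entry the shares were 74.9% of those that passed and 18.35% of those that did not, and 37.4% over all 22862 genes with 1 entry. Shown are a pair of progenitor-high genes (Kcnj10, Kcnk5), a pair of Neuron-high genes (Kcnma1, Kcnc1) and a pair with almost no reads (Kcnmb1, Kcnk18), with each CG in capitals, 5′ to 3′ on the strand of the gene.
Kcnj10 (chr1:172340960-172341209, plus strand): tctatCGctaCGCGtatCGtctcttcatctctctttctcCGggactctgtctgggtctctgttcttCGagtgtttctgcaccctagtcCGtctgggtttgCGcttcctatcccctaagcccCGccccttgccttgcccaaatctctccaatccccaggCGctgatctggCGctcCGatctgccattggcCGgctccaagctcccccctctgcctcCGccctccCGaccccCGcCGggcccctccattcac
Kcnk5 (chr14:20181783-20182032, minus strand): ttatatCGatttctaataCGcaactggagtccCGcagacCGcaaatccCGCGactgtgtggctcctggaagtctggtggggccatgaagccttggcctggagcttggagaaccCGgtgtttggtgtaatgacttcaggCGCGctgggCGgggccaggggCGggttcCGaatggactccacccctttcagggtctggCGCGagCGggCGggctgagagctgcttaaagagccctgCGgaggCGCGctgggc
Kcnma1 (chr14:24004206-24004455, minus strand): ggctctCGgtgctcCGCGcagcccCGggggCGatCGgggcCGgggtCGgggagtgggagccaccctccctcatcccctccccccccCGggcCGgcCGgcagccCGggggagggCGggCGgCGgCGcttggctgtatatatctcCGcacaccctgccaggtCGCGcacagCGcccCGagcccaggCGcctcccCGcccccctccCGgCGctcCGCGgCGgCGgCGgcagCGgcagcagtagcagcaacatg
Kcnc1 (chr7:46396218-46396467, plus strand): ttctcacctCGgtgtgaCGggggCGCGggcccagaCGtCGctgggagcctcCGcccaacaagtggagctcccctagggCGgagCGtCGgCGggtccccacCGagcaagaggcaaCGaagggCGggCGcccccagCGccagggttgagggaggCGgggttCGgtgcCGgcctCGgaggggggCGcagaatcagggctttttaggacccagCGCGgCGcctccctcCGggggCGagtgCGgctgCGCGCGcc
Kcnmb1 (chr11:33962763-33963012, plus strand): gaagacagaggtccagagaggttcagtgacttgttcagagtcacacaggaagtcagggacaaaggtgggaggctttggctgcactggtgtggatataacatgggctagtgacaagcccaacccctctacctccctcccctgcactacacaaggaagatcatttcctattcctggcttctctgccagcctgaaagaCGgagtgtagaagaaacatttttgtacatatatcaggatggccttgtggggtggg
Kcnk18 (chr19:59219398-59219647, plus strand): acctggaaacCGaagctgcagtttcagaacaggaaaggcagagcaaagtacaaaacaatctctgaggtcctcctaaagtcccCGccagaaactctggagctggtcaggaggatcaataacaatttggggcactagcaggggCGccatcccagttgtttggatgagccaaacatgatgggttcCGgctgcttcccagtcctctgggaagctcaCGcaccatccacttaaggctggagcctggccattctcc
The CG counts of these 6 windows were 17 and 19 for the progenitor-high pair, 31 and 30 for the Neuron-high pair, and 1 and 5 for the pair with almost no reads. High counts therefore occurred in genes of opposite course, and Kcnmb1 and Kcnk18 had 6 and 5 reads over all libraries. The 6 genes are examples that were not picked by a rule. Other genes higher in Neuron than in PP differed widely, with counts of 4 for Kcnj12, 7 for Kcnj5, 41 for Kcng3 and 43 for Kcnmb4. The match is a description of these letters, and methylation was not measured.

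**Figure D5:**
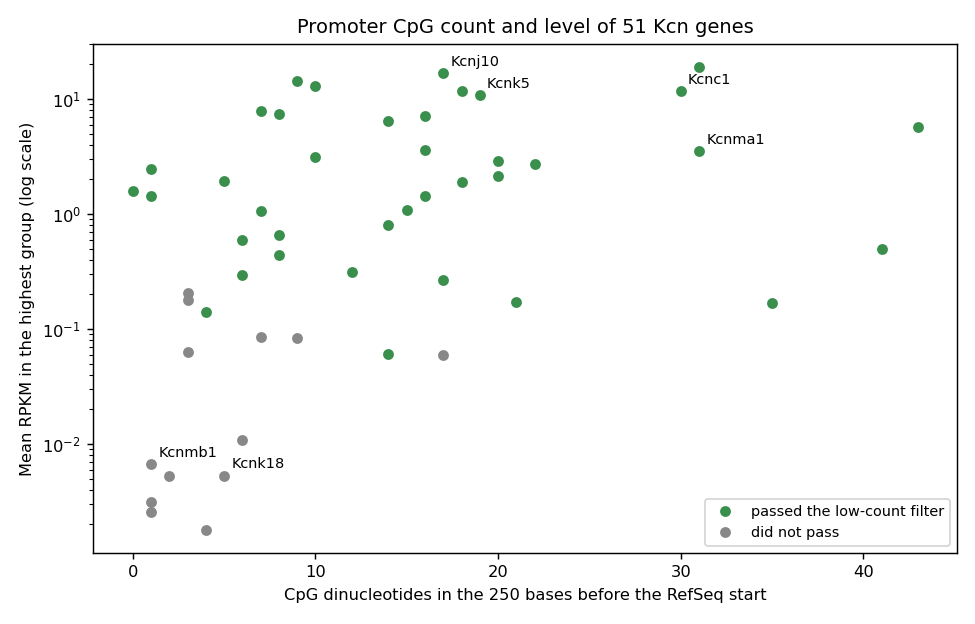
Number of CG dinucleotides in the 250 bases before the RefSeq start (horizontal axis) and mean level in the highest group in RPKM (vertical axis, log scale) for the 51 Kcn genes with 1 promoter entry; green points passed the low-count filter and grey points did not. Of the 13 grey points 1 lies at 10 or more, and the 6 named genes are those whose sequences are printed.

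Some Kcn genes lie next to each other, and neighbours could differ. On chromosome 1 (mm9), Kcnj9 and Kcnj10 are 11.95 kb apart on opposite strands, and Kcnj9 was 3.52-fold above DP in Neuron while Kcnj10 was 51.2-fold lower. On chromosome 6, Kcna5, Kcna1 and Kcna6 follow each other on the minus strand with gaps of 100.9 and 62.53 kb; Kcna1 and Kcna6 were among the highest folds in Neuron, and Kcna5 had 57 reads over all libraries and was not tested. On chromosome 3, Kcna3 and Kcna2 are 63.44 kb apart, and Kcna2 was 6.71-fold above DP in Neuron while Kcna3 was 1.55-fold lower. Kcnmb1 lies within the span of Kcnip1 on chromosome 11 and had 6 reads, beside 1096, 3818 and 1756 of Kcnip1 in PP, DP and Neuron.

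The libraries held 34337209 to 55935128 gene reads. Sums of markers moved with the sorted groups: 7 radial glia genes summed to 5270 to 6220 CPM in PP, 2437 to 3549 in DP and 297.4 to 379.4 in Neuron. Intermediate progenitor genes were highest in DP (2685 to 3964 CPM). The 6 projection neuron genes, Tubb3 among them, were at 132.6 to 255.8, 1217 to 1708 and 5516 to 6067 CPM. Of these 6, 5 were called higher and 1 lower in Neuron than in DP. Map2, also on that list, was not matched. Btg2 itself was 1.99-fold above PP in DP, and Tubb3 4.1-fold above DP in Neuron. Transcripts of projection neuron genes were thus present in DP. Although the ganglionic eminences had been taken off, interneuron genes summed to 424.8 to 460.8 CPM in Neuron, 29.4 to 157.8 in DP and 5.24 to 52.7 in PP. Cajal-Retzius genes summed to 817.1 to 932.7, 54.9 to 63.0 and 4.15 to 7.52. None was at 0 in any group, but in PP 4 of the 8 interneuron and 5 of the 6 Cajal-Retzius genes had a mean under 1 CPM. In DP these numbers were 3 and 2, and in Neuron 0 for both. The part of these cells in the Kcn differences was not tested.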

How the data were processed

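The authors deposited whole-number counts of reads per gene in one table for the single-read and one for the paired-end runs, per the file headers. Per the submitters' processing notes, the tools used included featureCounts 1.4.4, DESeq2 1.4.5, TopHat2 2.0.10, Bowtie2 2.2.1 and Cufflinks 2.1.1 with the build mm9; their roles, order and the strand setting of the counting are not given in the sources used here. The deposited comparison tables hold a normalised signal per library, which matched the added counts divided by 1 size factor within 0.06 for 159605 and 159604 of 159606 values, and the authors' log2 fold changes and adjusted p-values. 

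Counts of both runs of a library were added (18 samples, 9 libraries, 34337209 to 55935128 reads). The column names carry library numbers that stand in no label, so that columns were tied to groups by name and not to the replicate numbers of the titles. The series design calls the replicates biological. The p-values reflect how much libraries of a group vary, between pools of embryos and by whatever the numbered sets described below share. edgeR 4.0.16 (R 4.3.3) was used with TMM scaling, the filterByExpr filter (about 0.232 CPM in a library of median size) and the quasi-likelihood F test, fitted to all 9 libraries with group as the single term; SE is the log2 difference over the square root of F. CPM and RPKM use TMM-scaled totals and the deposited gene length. The threshold was an adjusted p of 0.05. A fold against a group at 0 reads is a bound against 3 reads over the group and covers counting error only. The test was tested on simulated data. DESeq2 1.42.0, other scalings, filters and run choices, and leaving out libraries were alternatives.

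The library numbers in the column names run in 3 consecutive sets of 1 PP, 1 DP and 1 Neuron library (from L222, L355 and L393), and no source used here says what a set shares. Deviations from the group means in log2 CPM over 18627 features correlated at r = 0.13 to 0.34 in all 9 pairs of libraries of a set, and at -0.32 to 0.01 in the 18 pairs across sets. For each feature the 3 deviations of a group sum to 0. Positive values within sets thus push those across sets down, which are no separate evidence. Because of the values within sets, the sets were taken as a replicate block in a further edgeR fit. It was chosen after seeing the data, and its values stand beside the results they change.

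Members, lists and alternatives were chosen with earlier results of these data known. Named were Kcna1, in each comparison the 10 highest and 10 lowest log2 differences among called Kcn genes, the most abundant gene of each subfamily, and up to 4 highest and 4 lowest of the partner, HCN and pump genes; other Kcn genes stand in the accounts of their subfamilies. Some genes that this rule names are not reported here. Marker lists covered radial glia, intermediate progenitors, projection neurons, interneurons, Cajal-Retzius cells, endothelium (8.22 to 24.4 CPM in PP, 9.03 to 11.0 in DP and 2.85 to 5.25 in Neuron, summed over 7 genes), pericytes, microglia, red blood cells, choroid plexus, oligodendrocyte precursors (15.1 to 16.5, 9.55 to 15.6 and 1.28 to 1.52 CPM over 5 genes) and meninges (9.26 to 51.7, 3.66 to 6.85 and 0.67 to 1.31 CPM over 6 genes).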

Additional observations from a re-analysis of the deposited data

How the results depend on the processing

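The counts of Kcn genes called in each direction stayed within 1.5 times their value under every alternative tried except a required fold of 1.5 (glmTreat), which gave 5 Kcn genes lower in DP than in PP in place of 12, and 8 higher and 3 lower partner, HCN and pump genes in place of 13 and 5. With the replicate block, a fit added after seeing the data, 14 Kcn genes in place of 12 were called lower between PP and DP. In that fit 6 partner, HCN and pump genes were lower in Neuron than in DP in place of 3. Calls also rose over all 18627 features. The block fit called 4736 lower in DP than in PP in place of 3754. It called 6912 lower in Neuron than in DP in place of 6378. Of the results for single genes it lost no call and gained 3, those on Kcnd2, Kcnn4 and Kcne2 given above. Leaving out 1 library at a time gave 34 to 36 Kcn genes higher and 10 to 12 lower in DP than in PP, 56 to 58 and 10 to 12 between DP and Neuron, and 56 to 58 and 13 to 15 between PP and Neuron. On CPM sums in place of RPKM sums the log2 ratio of Neuron over PP was 2.2 for Kcna, 1.10 for Kcnb, 0.99 for Kcnh, 0.65 for Kcnj, 3.47 for Kcnm and 5.30 for Kcnq; this scale drops gene length. With single-read runs alone it was 2.08 for Kcnh, 3.43 for Kcnm and 5.99 for Kcnv, and with paired-end runs alone 2.19 for Kcnh; the cause was not tested. For single genes, 217 of 255 results were called. Each alternative other than the required fold lost 6 or fewer of the called results that it still tested. Of the 217, 205 were still tested with single-read runs alone, 211 with paired-end runs alone and 207 with only the 2 groups compared. The rest fell under the low-count filter there and are not counted as lost. Losses among results still tested fell on 15 Kcn results, 10 of them between PP and DP. One comparison reversed (Kcnj8, Neuron against DP): at log2 -0.13 in the full data, it ranged from -0.78 to 4.52 with 1 library left out, with the highest value without L223, and was 4.71 (adjusted p = 0.0161) without L222, L223 and L224, an alternative chosen after seeing the data, because no DP read was left. Depth limits the 19 rows that were not tested and the genes named with under 50 reads in a group.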

Other observations

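The deposited counts also cover unannotated transcripts assembled by the authors, and 4 tested ones lie within 20 kb of a Kcn gene (mm9 coordinates); they were looked up after the Kcn values had been seen. XLOC_042071, at chr6:126499348-126523892 on the minus strand, lies 13.77 kb from Kcna5 on the side of Kcna1. It was at 0.0537, 0 and 0.0206 CPM in the PP libraries, 0.0471, 0.194 and 0.193 in DP, with 5.92, 7.09 and 6.28 in Neuron, where it stood above Kcna5 in each library; Kcna5 had 57 reads over all libraries. It was 43-fold above DP in Neuron (edgeR adjusted p = 4.58e-08) and 5.88-fold above PP in DP (adjusted p = 0.0172). XLOC_043282, at chr7:53359695-53377052 on the plus strand, lies 4.087 kb from Kcnj11, which is on the minus strand. It was at 1.05, 1.77 and 1.09 CPM in PP, 5.49, 8.25 and 8.71 in DP, with 22.2, 26.6 and 19.0 in Neuron, 5.7-fold above PP in DP (adjusted p = 9.99e-06) and 3.02-fold above DP in Neuron (adjusted p = 2.45e-05). Kcnj11 itself was 3.34-fold and 4.31-fold higher at these steps. The transcripts near Kcnab3 and Kcnip3, XLOC_008252 and XLOC_026871, stayed at or under 1.45 CPM in every library. Whether any of them is joined to the Kcn gene next to it was not tested.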
